A study of Homo sapiens with 3 samples.

Results

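The nuclear-encoded subunits of oxidative phosphorylation were followed in KYSE510 cells, a long-established line from a human squamous cell carcinoma of the esophagus. Members were the genes whose symbol begins with NDUFA, NDUFB, NDUFC, NDUFS, NDUFV, UQCR, COX4I, COX5, COX6, COX7, COX8, ATP5F1, ATP5M or ATP5P, without the NDUFAF assembly factors and without pseudogenes, together with SDHA, SDHB, SDHC, SDHD and CYC1. The rule found 88 genes among the 19266 listed: 37 of complex I, 4 of complex II, 10 of complex III, 19 of complex IV and 18 of complex V. NDUFA4 and NDUFA4L2, named after complex I but now placed in complex IV, were counted with complex IV. The readthrough units NDUFC2-KCTD14 and ATP5MF-PTCD1 were set aside.

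The cells had received lentivirus with a scrambled short hairpin RNA (control), shRNA#1 (sh1) or shRNA#2 (sh2) for 24 h and were then held for 48 h under 4 µM puromycin, in RPMI-1640 with fetal bovine serum. Both hairpins were directed against the transcript TCONS_02256997, and the stated purpose was to screen for its possible targets. The targeted transcript itself was not analysed here. All 3 samples thus carried a lentivirus and had passed selection, and no uninfected cells were compared. Each sample came with 3 numbered gene tables, treated here as 3 libraries, which gives n = 3 per group and 9 in all. Nothing in the labels tells if the tables of a sample stem from different cultures, from different libraries or from runs of 1 library. All p-values therefore rest on the spread among tables, which may be technical, with 1 sample per group. Libraries are numbered as their tables are.

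Oxidative phosphorylation is carried out in the inner mitochondrial membrane. Complex I (NADH dehydrogenase) and complex II (succinate dehydrogenase) pass electrons to ubiquinone, complex III passes them on to cytochrome c, and complex IV (cytochrome c oxidase) passes them to oxygen. Complexes I, III and IV pump protons, and complex V (ATP synthase) uses the return flow to make ATP. Subunits encoded by mitochondrial DNA join the nuclear-encoded ones in every complex but complex II, and the mitochondrially encoded subunits were not analysed here. Nuclear respiratory factor NRF1 and the ETS-family factor GABP are known for sites in the promoters of many of these genes.

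A RefSeq promoter window (250 bases before to 50 after the start, GRCh38.p14) was found for 71 of the 88 members, with 85 windows in all since some genes have several. The NRF1 motif (GCGCA, 1 base of any kind, then GCGC) on either strand occurred in 17 (20%) of the member windows, against 5.78% of all 35116 windows of the table and 9.19% of the windows of genes tested here. The ETS motif CCGGAAG on either strand occurred in 22 (25.9%) of the member windows, against 10.3% of all windows and 16% of those of tested genes. At least 1 of the motifs occurred in 42.4% of member windows, 14.9% of all windows and 23.2% of windows of tested genes, and neither motif contains the other. These matches are descriptions of sequence and show no binding. Stretches of 60 bases are given for 6 named genes, all picked from those that held a match. NDUFC2, NDUFB9, NDUFA4, NDUFB1 and NDUFB2, which had larger changes, were not among the genes with such a stretch. SDHA, UQCRFS1 and COX6B1 were among the 2 largest called changes of their complexes in at least 1 comparison. SDHB, UQCR11 and ATP5F1C moved in opposite directions with the hairpins. For SDHB, the fall with sh1 was barely past the threshold and was lost under several settings. Capitals mark the motif, which is the NRF1 motif in SDHA (chr5:218260-218319, plus strand), UQCRFS1 (chr19:29213152-29213211, minus strand), UQCR11 (chr19:1605463-1605522, minus strand, 2 matches) and ATP5F1C (chr10:7788117-7788176, plus strand). The ETS motif is marked in COX6B1 (chr19:35648263-35648322, plus strand) and SDHB (chr1:17054128-17054187, minus strand). All are written 5′ to 3′ on the strand of the gene, and all but that of SDHB end at the base before the annotated start.
SDHA: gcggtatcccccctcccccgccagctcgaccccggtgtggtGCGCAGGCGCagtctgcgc
UQCRFS1: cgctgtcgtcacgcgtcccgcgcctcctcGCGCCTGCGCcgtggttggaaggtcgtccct
UQCR11: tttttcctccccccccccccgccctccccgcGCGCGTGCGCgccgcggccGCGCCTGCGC
ATP5F1C: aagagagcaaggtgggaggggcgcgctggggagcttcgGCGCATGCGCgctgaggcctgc
COX6B1: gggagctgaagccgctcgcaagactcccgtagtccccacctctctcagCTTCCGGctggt
SDHB: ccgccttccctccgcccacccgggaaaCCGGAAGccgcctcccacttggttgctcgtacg

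Total expected counts per library were 14660821 to 16092417, and the coefficient of variation that edgeR fitted between libraries of a sample was 2.33%. Squamous markers were present in every group, with 7 of the 10 listed genes above 10 CPM (counts scaled to a common TMM-normalised library size). Their summed level, mostly from KRT17, KRT5, SFN and TP63, was 5770 to 5830 CPM in control, 3510 to 3580 CPM with sh1 and 4620 to 4800 CPM with sh2. SOX2 went the other way, at 20.8 CPM in control, 49.8 CPM with sh1 and 34.7 CPM with sh2. KRT6A was at 54.6, 55.8 and 79.4 CPM, and the other listed squamous markers had lower means than control with both hairpins. Of 16 markers of fibroblasts, leukocytes, endothelium and muscle, 10 lay below 1 CPM in all groups, with MYH2 at 0. The summed level of the 16 was 142 to 145 CPM in control, 198 to 201 CPM with sh1 and 197 to 216 CPM with sh2, mostly from COL1A1 and CD68, and its part in the results below was not tested. In bulk samples, fewer cells of a type and less RNA per cell cannot be told apart.

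Of the 88 members, 82 passed the filter on low counts and were tested. The others were UQCRHL, COX4I2, COX6A2, COX7A1, COX7B2 and COX8C, which encode copies or isoforms known mainly from muscle, lung, testis or other tissues, and 3 of them were at 0 in every library. Tested members ran from 1.59 TPM (a level per transcript length) for ATP5MGL to 950 TPM for COX6B1 in control. In control, complex I genes held 32.5% of the members' TPM, complex IV genes 28.2%, complex V genes 26.0%, complex III genes 9.37% and complex II genes 3.98%.

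RNA of the subunits was more abundant with either hairpin than with the scrambled one. Their share of all expected counts was 0.675%, 0.646% and 0.632% in the control libraries. It was 0.748%, 0.766% and 0.749% with sh1 and 0.747%, 0.769% and 0.734% with sh2. All 6 hairpin libraries thus lay above all 3 control libraries. The summed TPM was 17242 ± 547 (SD, n = 3) in control, 19584 ± 202 with sh1 and 19004 ± 385 with sh2, or 1.14 and 1.1 times the control level.

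By complex, the summed TPM of complex I was 5595 ± 172 in control, and sh1 and sh2 had 6516 ± 46.2 and 6355 ± 115 (1.16 and 1.14 times). Complex II went from 686 ± 5.27 to 769 ± 15.7 and 762 ± 23.2 (1.12 and 1.11 times). With sh1, mean TPM went from 263 to 351 for SDHA and from 238 to 216 for SDHB. It went from 101 to 114 for SDHC and from 84.5 to 88.7 for SDHD, so the sh1 gain was mostly that of SDHA. Complex IV went from 4870 ± 176 to 5521 ± 91.3 and 5271 ± 86.0 (1.13 and 1.08 times). Complex V went from 4475 ± 162 to 5086 ± 59.5 and 4946 ± 157 (1.14 and 1.11 times), and in these 4 complexes no hairpin library overlapped a control library. Complex III showed the smallest ratios: 1616 ± 39.4 in control, 1692 ± 11.3 with sh1 (1.05 times) and 1670 ± 22.8 with sh2 (1.03 times), where the highest control library, at 1661, lay above the lowest sh2 library, at 1650. No test was made on these sums.

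**Figure D1:**
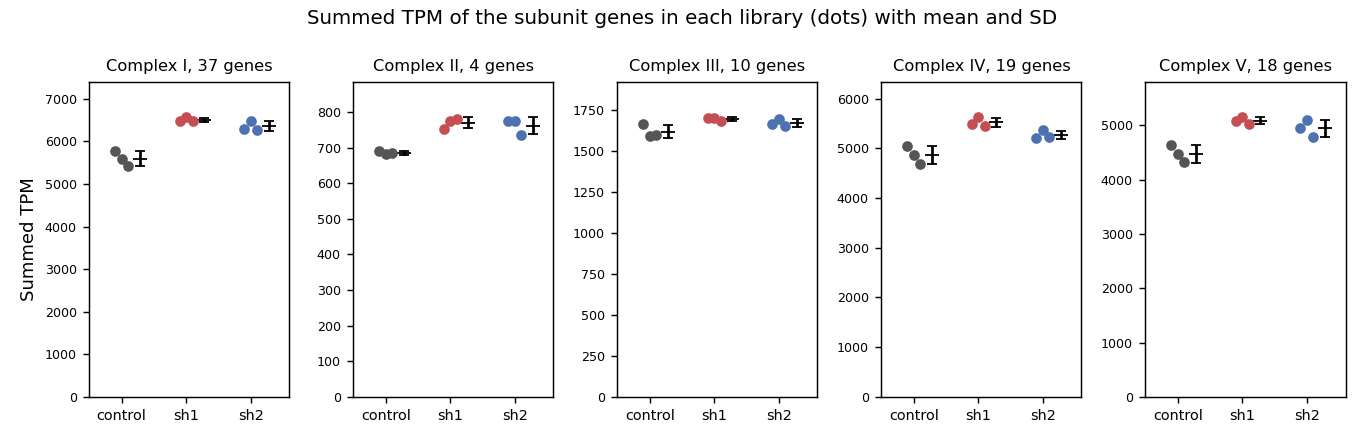
Summed TPM (vertical axes, from 0) of the subunit genes of each complex in the 3 libraries (dots) of control, sh1 and sh2, with the mean and SD beside them. The hairpin libraries lie above the control libraries for complexes I, II, IV and V, and control and sh2 overlap for complex III.

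Gene by gene, the quasi-likelihood test of edgeR, adjusted by Benjamini-Hochberg over 13580 genes, called 53 of the 82 tested members higher and 11 lower with sh1 than in control, at an adjusted p below 0.05. Over all genes tested, 34.7% were called higher and 34.6% lower in that comparison. With sh2, 54 members were called higher and 10 lower than in control, where 34.2% of all genes were called higher and 34.3% lower. The median log2 fold change of the tested members was 0.21 with sh1 (1.16-fold) and 0.20 with sh2 (1.15-fold), beside 0.01 and 0.00 over all genes. Both comparisons use the same 3 control libraries, so their values are given side by side and are not independent. Without control library 1, in which members lay 0.11 (log2, median) above that sample's other tables, the medians were 0.24 and 0.22, and without control library 3 they were 0.19 and 0.17.

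The changes were small in size. With sh1, 4 members were called higher by at least 1.5-fold (4.88%, against 11.3% of all genes) and 2 lower (2.44%, against 12.8%). With sh2, 3 were called higher by at least 1.5-fold (3.66%, against 9.74% of all genes) and 1 lower (1.22%, against 12.4%). Counted by libraries that do not overlap, 51 members were above all control libraries and 11 below them with sh1 (36.2% and 35.7% of all genes), and 51 above and 9 below with sh2 (35.3% and 35.0% of all genes). Across the 82 members, Spearman's rho of the log2 fold change with the control level in TPM was 0.03 with sh1 and -0.02 with sh2, as a description across genes that share libraries.

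Most subunit messages are short, and short genes as a whole were called higher more often than lower. Of the 684 tested genes of under 1000 bases, 308 (45.0%) were called higher and 169 (24.7%) lower with sh1, with a median log2 fold change of 0.12, and 325 (47.5%) were higher and 149 (21.8%) lower with sh2, with a median of 0.17. The 50 tested members of under 1000 bases had 33 called higher and 5 lower with sh1 (median 0.25), and 32 higher and 6 lower with sh2 (median 0.19). The 32 members of 1000 bases or more had 20 called higher and 6 lower with sh1 (median 0.12), and 22 higher and 4 lower with sh2 (median 0.21). Of all 12896 tested genes of that length, 34.2% were called higher and 35.1% lower with sh1 (median 0.01). With sh2, 33.5% were higher and 34.9% lower (median 0.00). Length moved with the library as well: in control library 1, short genes lay 0.08 above the other tables of the sample and in control library 3 they lay 0.06 below. The part of gene length in the members' change was not tested.

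**Figure D2:**
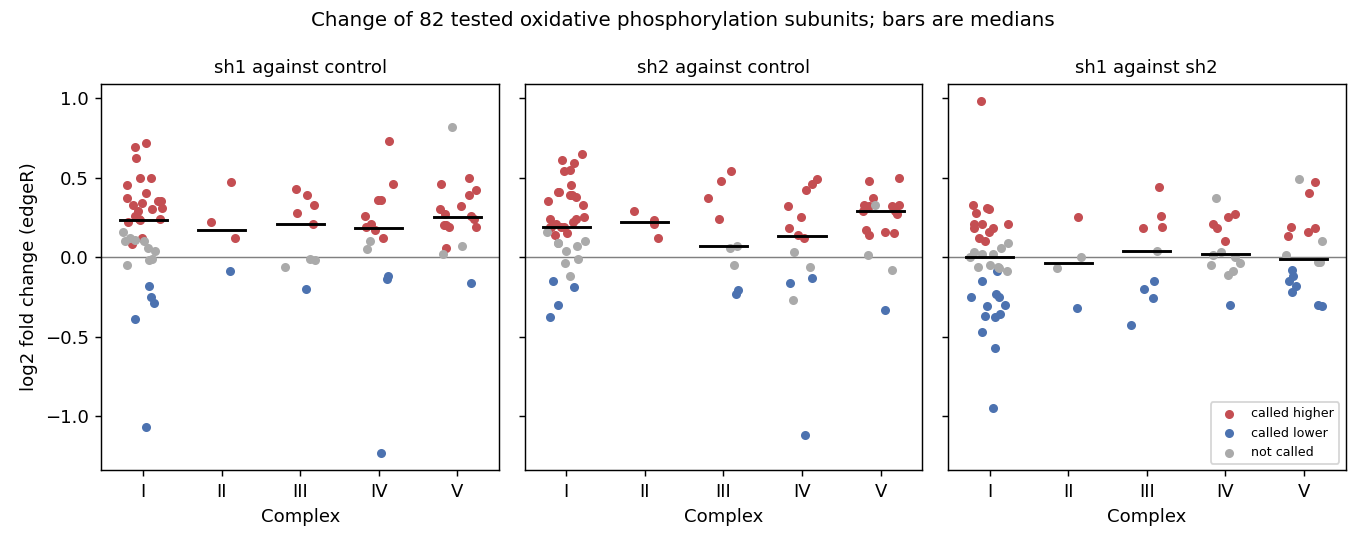
The log2 fold change from edgeR (vertical axis) of the 82 tested subunits by complex, for sh1 and sh2 against control and for sh1 against sh2; dots are genes, coloured by call, and bars are medians. Medians lie above 0 in every complex against control, between 0.07 and 0.29, and near 0 between the hairpins.

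Complex I has a core conserved from bacteria, part of it nuclear-encoded, and many accessory subunits. Of its 37 nuclear genes, all tested, 22 (59.5%) were called higher and 5 (13.5%) lower with sh1 (median 0.23). With sh2, 24 (64.9%) were higher and 4 (10.8%) lower (median 0.19). Over all genes, 34.7% were called higher and 34.6% lower with sh1, and 34.2% and 34.3% with sh2. These shares of all genes apply to the counts against control by complex and by part of a complex below. Among the 10 genes of the NADH-oxidizing N module, 7 were called higher and 2 lower with sh1, and 7 higher and 1 lower with sh2. In the 5 genes of the ubiquinone-binding Q module, 1 was called higher and 1 lower with sh1 (median 0.10), and 3 higher and 1 lower with sh2 (median 0.22), with 1 higher and 3 lower in sh1 against sh2. Among the 11 NDUFB genes, which encode accessory subunits of the distal membrane arm, 6 (54.5%) were called higher and 2 (18.2%) lower with sh1. With sh2, 6 (54.5%) were higher and 1 (9.09%) lower.

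NDUFC2 (Entrez gene 4718), an accessory subunit of the membrane arm, was at 71.6, 66.3 and 69.8 CPM in control, 115, 118 and 110 CPM with sh1 and 102, 103 and 99.0 CPM with sh2. The groups did not overlap, with sh1 highest and control lowest. The log2 fold change was 0.72 ± 0.039 (SE) with sh1 (edgeR adjusted p = 2.56e-16) and 0.55 ± 0.040 with sh2 (edgeR adjusted p = 2.81e-13). NDUFB9 (4715), a membrane-arm accessory subunit with the highest control level in complex I, at 556 ± 21.5 TPM, was at 167, 153 and 155 CPM in control, 238, 247 and 244 CPM with sh1 and 202, 216 and 212 CPM with sh2. It followed the same order of groups, with log2 fold changes of 0.62 ± 0.035 with sh1 and 0.41 ± 0.035 with sh2 (edgeR adjusted p = 7.59e-16 and 1.73e-11).

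NDUFB1 (4707), another membrane-arm accessory subunit, was at 21.9, 20.2 and 16.9 CPM in control, 9.23, 9.75 and 9.16 CPM with sh1 and 17.5, 18.6 and 18.3 CPM with sh2. The sh1 libraries stood below all others, while control and sh2 overlapped. Its log2 fold change of -1.07 ± 0.092 with sh1 (edgeR adjusted p = 1.29e-11) was the deepest fall in complex I, against -0.12 ± 0.079 with sh2 (edgeR adjusted p = 0.177). The difference between the hairpins, sh1 minus sh2, was -0.95 ± 0.093 on the log2 scale (edgeR adjusted p = 2.21e-10). Without control library 3, the value with sh2 was -0.22 and passed the test (edgeR adjusted p = 0.0119).

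NDUFB2 (4708) moved in opposite directions. It was at 13.7, 14.1 and 13.8 CPM in control, 20.8, 23.4 and 22.8 CPM with sh1 and 10.6, 12.1 and 11.1 CPM with sh2, so that no 2 groups overlapped. Its log2 fold change was 0.69 ± 0.075 with sh1 (edgeR adjusted p = 2.12e-09) and -0.30 ± 0.085 with sh2 (edgeR adjusted p = 0.00263). NDUFB3 (4709) showed the reverse, at 32.5, 31.9 and 29 CPM in control, 27.8, 27.2 and 27.4 CPM with sh1 and 41.5, 39.8 and 41.1 CPM with sh2. Its log2 fold change was -0.18 ± 0.058 with sh1 and 0.39 ± 0.053 with sh2, and both passed the test.

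Other accessory subunits moved further with sh2. NDUFC1 (4717) was at 17.0, 14.8 and 16 CPM in control, 21.2, 20.8 and 18.7 CPM with sh1 and 24.7, 25.3 and 24.9 CPM with sh2. NDUFA8 (4702), which lies on the intermembrane-space side, was at 36.0, 34.3 and 37.1 CPM in control, 43.2, 39.8 and 43.8 CPM with sh1 and 54.8, 55.6 and 53.2 CPM with sh2. For both genes sh2 stood above sh1 and sh1 above control without overlap. The log2 fold changes with sh2 were 0.65 ± 0.070 for NDUFC1 and 0.61 ± 0.049 for NDUFA8, against 0.35 ± 0.074 and 0.24 ± 0.052 with sh1.

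The nuclear core subunits of complex I carry electrons from NADH through flavin and iron-sulfur clusters to ubiquinone. NDUFV1, which binds FMN and NADH, was slightly higher with both, at 0.08 ± 0.033 with sh1 (edgeR adjusted p = 0.0253) and 0.14 ± 0.033 with sh2 (edgeR adjusted p = 0.000337). The NDUFV1 value with sh1 did not pass without control library 2 (0.07, edgeR adjusted p = 0.109) or without sh1 library 3 (0.07, edgeR adjusted p = 0.0882), nor with DESeq2 (0.08, adjusted p = 0.0724). Its partner NDUFV2 rose with sh2 (0.45 ± 0.054) and did not pass the test with sh1 (0.06 ± 0.057, edgeR adjusted p = 0.326), with -0.38 ± 0.053 for sh1 minus sh2 (edgeR adjusted p = 2.37e-07).

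Among the iron-sulfur core subunits, NDUFS8 rose with both hairpins, by 0.24 ± 0.045 with sh1 and 0.33 ± 0.044 with sh2. NDUFS3, a core subunit of the ubiquinone-binding module without a cluster, passed the test with sh2 (0.35 ± 0.061) and not with sh1 (0.10 ± 0.064, edgeR adjusted p = 0.156), although without sh1 library 1 it did (0.17, edgeR adjusted p = 0.0329). NDUFS7 was called higher with sh2 (0.22 ± 0.068, edgeR adjusted p = 0.00571), a call lost without control library 3 (0.16, edgeR adjusted p = 0.0573) and without sh2 library 2 (0.15, edgeR adjusted p = 0.0679), and stood at -0.02 ± 0.071 with sh1. NDUFS1 was called higher with sh1 (0.12 ± 0.041, edgeR adjusted p = 0.00994) but not without control library 2 (0.10, edgeR adjusted p = 0.068) or with limma on log2(FPKM + 1) with no filter (0.12, adjusted p = 0.0616), and stood at -0.04 ± 0.041 with sh2.

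**Figure D3:**
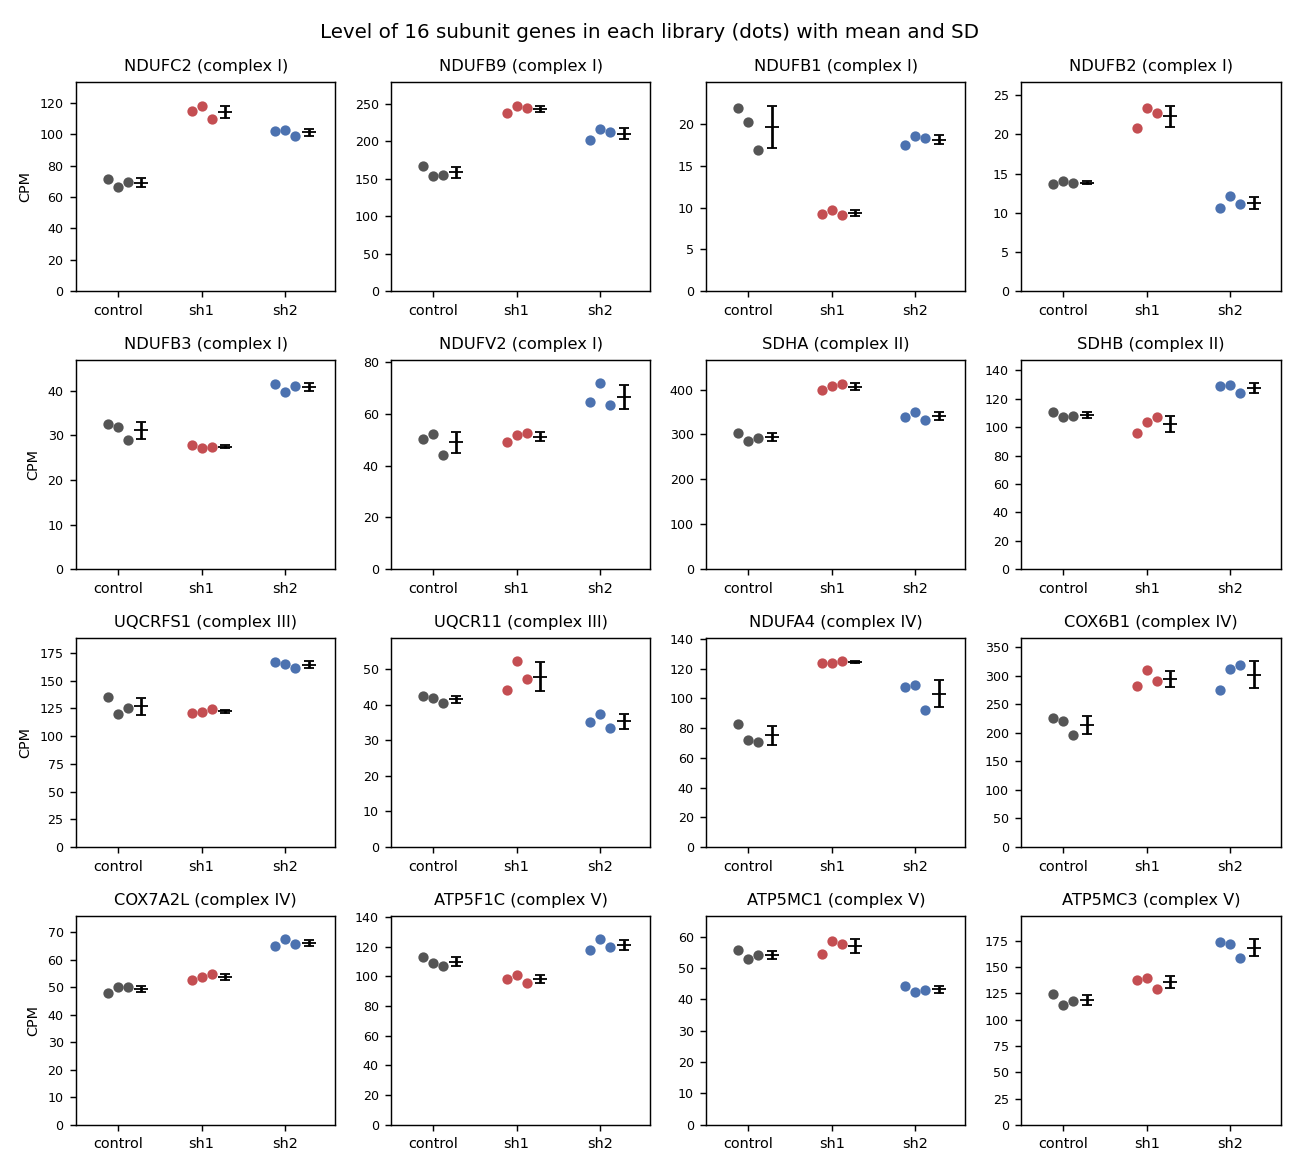
Level in CPM (vertical axes, from 0) of 16 subunit genes in each of the 3 libraries (dots) of control, sh1 and sh2, with mean and SD. NDUFC2, NDUFB9, SDHA, NDUFA4 and COX6B1 are higher with both hairpins, and NDUFB1 is lower with sh1 while control and sh2 overlap. NDUFB2 and UQCR11 are higher with sh1 and lower with sh2, while NDUFB3, SDHB and ATP5F1C show the reverse. For SDHB, the fall with sh1 is barely past the threshold and is lost under several settings.

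Complex II has 4 subunits, all nuclear-encoded, and also serves the citric acid cycle. Of the 4, 3 were called higher and 1 lower with sh1, and 4 were called higher with sh2. SDHA (6389), the flavoprotein that oxidizes succinate, was at 303, 286 and 293 CPM in control, 398, 409 and 412 CPM with sh1 and 339, 350 and 333 CPM with sh2. The groups did not overlap, and the log2 fold change was 0.47 ± 0.029 with sh1 (edgeR adjusted p = 8.87e-15) and 0.21 ± 0.029 with sh2 (edgeR adjusted p = 2.29e-07).

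SDHB (6390), its iron-sulfur partner, was at 111, 107 and 108 CPM in control, 96.2, 104 and 107 CPM with sh1 and 129, 130 and 124 CPM with sh2. The sh2 libraries were above all others, whereas the highest sh1 library lay only just below the lowest control library, both at 107 CPM when rounded. Its log2 fold change of 0.23 ± 0.037 with sh2 passed the test (edgeR adjusted p = 2.28e-06). The value with sh1, -0.09 ± 0.039 (edgeR adjusted p = 0.0469), was barely past the threshold and did not pass without sh1 library 1 (-0.04, edgeR adjusted p = 0.352) or without control library 1 (-0.07, edgeR adjusted p = 0.156), 2 (-0.10, edgeR adjusted p = 0.0529) or 3 (-0.09, edgeR adjusted p = 0.0772). It was also lost without sh2 library 1 (-0.09, edgeR adjusted p = 0.0507). With all libraries kept, the call was lost with DESeq2 (-0.09, adjusted p = 0.0794), upper-quartile factors (-0.04, edgeR adjusted p = 0.358), library size alone (-0.08, edgeR adjusted p = 0.0535) and limma at its 3 settings (-0.09, adjusted p = 0.0539, 0.0546 and 0.0844). The membrane anchors differed little: SDHC rose by 0.22 ± 0.038 and 0.29 ± 0.037 with sh1 and sh2. SDHD stood at 0.12 ± 0.051 and 0.12 ± 0.050 (edgeR adjusted p = 0.0357 and 0.0296), calls that were lost without control library 1 (0.0694 and 0.0766 as edgeR adjusted p) or control library 3 (0.17 and 0.188), without sh1 library 2 for sh1 (0.284, at a log2 fold change of 0.07) and without sh2 library 1 (0.0912) or 2 (0.0676) for sh2. Both SDHD calls were lost too with DESeq2 (adjusted p = 0.113 and 0.099) and with limma with no filter (adjusted p = 0.0777 and 0.0797), and the sh2 call in edgeR with no filter on low counts (adjusted p = 0.0544).

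In complex III, 9 of 10 members were tested. With sh1, 5 (55.6%) were called higher and 1 (11.1%) lower (median 0.21), beside 34.7% and 34.6% of all genes. With sh2, 4 (44.4%) were higher and 2 (22.2%) lower (median 0.07), beside 34.2% and 34.3% of all genes. UQCRFS1 (7386), the Rieske iron-sulfur protein that takes electrons from ubiquinol, was at 135, 120 and 125 CPM in control, 121, 122 and 124 CPM with sh1 and 167, 165 and 161 CPM with sh2. Control and sh1 overlapped and sh2 lay above both. The log2 fold change was 0.37 ± 0.036 with sh2 (edgeR adjusted p = 2.2e-10) and -0.06 ± 0.038 with sh1 (edgeR adjusted p = 0.191, and 0.0472 at -0.09 without control library 2), with -0.43 ± 0.037 between sh1 and sh2 (edgeR adjusted p = 1.23e-11).

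CYC1, cytochrome c1, fell by 0.20 ± 0.037 with sh1 (edgeR adjusted p = 2.14e-05) and stood at 0.06 ± 0.035 with sh2 (edgeR adjusted p = 0.112, and 0.0299 at 0.09 without sh2 library 1). Of the core proteins, UQCRC1 passed the test with neither hairpin (-0.01 ± 0.033 and -0.05 ± 0.033), and UQCRC2 was lower with sh2 (-0.21 ± 0.036) and at -0.02 ± 0.036 with sh1. The small supernumerary subunits UQCR10, UQCRB and UQCRQ rose with both: UQCR10 by 0.39 ± 0.056 and 0.54 ± 0.054, UQCRB by 0.28 ± 0.043 and 0.48 ± 0.041, and UQCRQ by 0.43 ± 0.043 and 0.24 ± 0.044 with sh1 and sh2.

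UQCR11 (10975), another small subunit, was at 42.4, 41.8 and 40.4 CPM in control, 44.2, 52.2 and 47.2 CPM with sh1 and 35, 37.5 and 33.4 CPM with sh2. The 3 groups did not overlap. It rose by 0.21 ± 0.055 with sh1 (edgeR adjusted p = 0.0016) and fell by 0.23 ± 0.058 with sh2 (edgeR adjusted p = 0.000745). UQCRH, the hinge protein with the highest control level of the complex at 373 ± 22.8 TPM, rose by 0.33 ± 0.041 with sh1 and stood at 0.07 ± 0.041 with sh2 (edgeR adjusted p = 0.132, and 0.00699 at 0.13 without control library 1). Its near-identical copy UQCRHL held 0.153% ± 0.115 of their joint TPM in control, and how the authors' counting divided reads between them cannot be told apart.

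In complex IV, 14 of 19 members were tested. With sh1, 9 (64.3%) were called higher and 3 (21.4%) lower (median 0.18), beside 34.7% and 34.6% of all genes. With sh2, 8 (57.1%) were higher and 3 (21.4%) lower (median 0.13), beside 34.2% and 34.3% of all genes. NDUFA4 (4697), a subunit of the assembled oxidase, was at 82.7, 72.2 and 70.4 CPM in control, 124, 124 and 125 CPM with sh1 and 108, 109 and 92.5 CPM with sh2. All hairpin libraries were above all control libraries. NDUFA4 rose by 0.73 ± 0.052 on the log2 scale with sh1 (edgeR adjusted p = 1.57e-13) and 0.46 ± 0.053 with sh2 (edgeR adjusted p = 6.21e-09).

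Its paralog NDUFA4L2 (56901), known as a target of hypoxia signalling, was near the detection limit, with 1.11, 0.865 and 0.923 CPM in control, 0.339, 0.271 and 0.611 CPM with sh1 and 0.626, 0.249 and 0.447 CPM with sh2, from 44, 18 and 21 counts summed per group. Its hairpin libraries lay below the control libraries. The log2 fold change was -1.23 ± 0.397 with sh1 (edgeR adjusted p = 0.00723) and -1.12 ± 0.383 with sh2 (edgeR adjusted p = 0.011). The sh2 call was lost without sh2 library 2 (-0.84, edgeR adjusted p = 0.0746) and with DESeq2 (-1.13, adjusted p = 0.0579). A further paralog that is no member, COXFA4L3 (84419), known to take the place of NDUFA4 in the oxidase, was added after values were seen. It was at 306 ± 10.6 TPM in control, 293 ± 8.08 with sh1 and 258 ± 14.1 with sh2, above NDUFA4 itself at 91.2 ± 6.98, 147 ± 1.70 and 120 ± 11.2 TPM. The COXFA4L3 log2 fold change was -0.01 ± 0.040 with sh1 (edgeR adjusted p = 0.893) and -0.18 ± 0.041 with sh2 (edgeR adjusted p = 0.000206). NDUFA4 thus held 22.9% ± 1.26 of the summed TPM of the 3 paralogs in control, 33.3% ± 0.847 with sh1 and 31.6% ± 0.917 with sh2.

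COX6B1 (1340), which faces the intermembrane space and had the highest control level of complex IV, was at 226, 220 and 196 CPM in control, 281, 310 and 291 CPM with sh1 and 275, 312 and 318 CPM with sh2. Both hairpin groups lay above control and overlapped each other. COX6B1 rose by 0.46 ± 0.046 with sh1 (edgeR adjusted p = 4.74e-10) and 0.49 ± 0.046 with sh2 (edgeR adjusted p = 8.75e-11). Regulatory subunit COX4I1 rose by 0.36 ± 0.031 and 0.25 ± 0.031, and COX5A rose by 0.26 ± 0.042 and 0.32 ± 0.041 with sh1 and sh2. COX5B, which binds zinc, fell by 0.14 ± 0.043 with sh1 (edgeR adjusted p = 0.00359) and stood at -0.06 ± 0.042 with sh2 (edgeR adjusted p = 0.243, and 0.0473 at -0.10 without control library 3).

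COX7A2L (9167), which helps to join complexes III and IV into supercomplexes and was counted here by its symbol, was at 48.1, 50.2 and 50 CPM in control, 52.5, 53.8 and 54.8 CPM with sh1 and 65.1, 67.5 and 65.8 CPM with sh2. The groups did not overlap, and sh2 stood furthest from control. It rose by 0.42 ± 0.042 with sh2 (edgeR adjusted p = 3.19e-10). The value with sh1 was 0.12 ± 0.044 (edgeR adjusted p = 0.0167), which was lost without control library 1 (0.10, edgeR adjusted p = 0.0679) and without sh1 library 3 (0.11, edgeR adjusted p = 0.0649), and with DESeq2 (0.12, adjusted p = 0.0812).

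Isoforms known from muscle and other specialised tissues contributed little. COX4I2, COX6A2 and COX7B2 were at 0 in all 9 libraries, where a count of 3, the most that a count of 0 allows, corresponds to 0.186 to 0.205 CPM, for counting error only. COX8C had 1 count in control and none with the hairpins, and COX7A1 had 8, 5 and 9 counts in control, sh1 and sh2. COX6B2, known from testis, held 0.338% ± 0.0571 of the COX6B TPM in control. Of the COX7A family, COX7A2L held 24.8% ± 1.33 of the TPM in control, 24.3% ± 0.904 with sh1 and 28.7% ± 0.608 with sh2. Of the widely expressed forms, COX6A1 rose by 0.21 ± 0.031 with sh1 and stood at 0.03 ± 0.031 with sh2. COX8A was lower with both (-0.12 ± 0.040 and -0.13 ± 0.040).

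Complex V had the largest share of members called higher against control among the complexes with more than 4 genes. Of its 18 members, 14 (77.8%) were called higher and 1 (5.56%) lower with each hairpin, with medians of 0.25 and 0.29. Over all genes, 34.7% were called higher and 34.6% lower with sh1, and 34.2% and 34.3% with sh2. In the catalytic F1 head, 4 of 5 genes were called higher and 1 lower with sh1, and 4 higher and none lower with sh2. The peripheral stalk had 3 of 4 called higher with sh1 and 4 of 4 with sh2, and the small membrane subunits ATP5ME, ATP5MF, ATP5MG, ATP5MJ and ATP5MK had 5 of 5 and 4 of 5.

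ATP5F1A (498), the alpha subunit of the head, rose by 0.24 ± 0.038 with sh1 and 0.27 ± 0.038 with sh2. ATP5F1B (506), the catalytic beta subunit with the highest control level of the complex at 931 ± 7.97 TPM, was at 705, 685 and 679 CPM in control, 727, 737 and 695 CPM with sh1 and 759, 772 and 747 CPM with sh2. Control and sh1 overlapped. The log2 fold change was 0.14 ± 0.027 with sh2 (edgeR adjusted p = 3.78e-05) and 0.06 ± 0.027 with sh1 (edgeR adjusted p = 0.0436). The sh1 call was lost without any single one of control libraries 2 and 3, sh1 libraries 1 and 2 and sh2 library 1 (log2 fold changes of 0.04 to 0.06, edgeR adjusted p = 0.111, 0.137, 0.12, 0.203 and 0.055). With all libraries kept it was lost at the same value of 0.06 with RLE factors (edgeR adjusted p = 0.0589), DESeq2 (adjusted p = 0.0653), no filter on low counts (edgeR adjusted p = 0.0668) and limma at its 3 settings (adjusted p = 0.0698, 0.0692 and 0.104), while upper-quartile factors gave 0.11 (edgeR adjusted p = 0.000645).

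ATP5F1C (509), the gamma subunit that turns inside the head, was at 113, 109 and 107 CPM in control, 98.4, 101 and 95.2 CPM with sh1 and 118, 125 and 120 CPM with sh2. The 3 groups did not overlap. It fell by 0.16 ± 0.037 with sh1 (edgeR adjusted p = 0.000425) and rose by 0.15 ± 0.036 with sh2 (edgeR adjusted p = 0.000615). Among the small subunits of the membrane part, ATP5MF (9551) was at 89.7, 82.7 and 75.6 CPM in control, 106, 122 and 123 CPM with sh1 and 100, 105 and 104 CPM with sh2, with log2 fold changes of 0.50 ± 0.051 and 0.32 ± 0.051. ATP5MJ rose by 0.46 ± 0.048 and 0.33 ± 0.048, and ATP5MK by 0.27 ± 0.060 and 0.48 ± 0.058 with sh1 and sh2. ATP5ME rose by 0.39 ± 0.073 with sh1 and stood at -0.08 ± 0.076 with sh2 (edgeR adjusted p = 0.365).

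The c subunit that forms the proton-driven ring is encoded by 3 genes with the same mature protein. ATP5MC1 (516) was at 55.6, 52.8 and 54.0 CPM in control, 54.6, 58.7 and 57.8 CPM with sh1 and 44.3, 42.3 and 43.0 CPM with sh2. ATP5MC3 (518) was at 124, 114 and 118 CPM in control, 138, 140 and 129 CPM with sh1 and 174, 172 and 159 CPM with sh2. With sh2, ATP5MC1 thus stood below every other library and ATP5MC3 above. The log2 fold changes with sh2 were -0.33 ± 0.046 for ATP5MC1 (edgeR adjusted p = 2.77e-07) and 0.50 ± 0.039 for ATP5MC3 (edgeR adjusted p = 1.22e-12), against 0.07 ± 0.044 and 0.19 ± 0.040 with sh1.

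ATP5MC2 (517), the most abundant of the 3 per length, rose by 0.32 ± 0.037 with sh1 and 0.16 ± 0.037 with sh2. As shares of the summed TPM of the 3 genes, ATP5MC1 held 34.2% ± 0.523 in control, 30.9% ± 0.245 with sh1 and 25.9% ± 0.892 with sh2. ATP5MC2 held 50% ± 0.850, 53.6% ± 0.986 and 52.8% ± 0.967, and ATP5MC3 held 15.7% ± 0.370, 15.5% ± 0.968 and 21.3% ± 0.572.

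**Figure D4:**
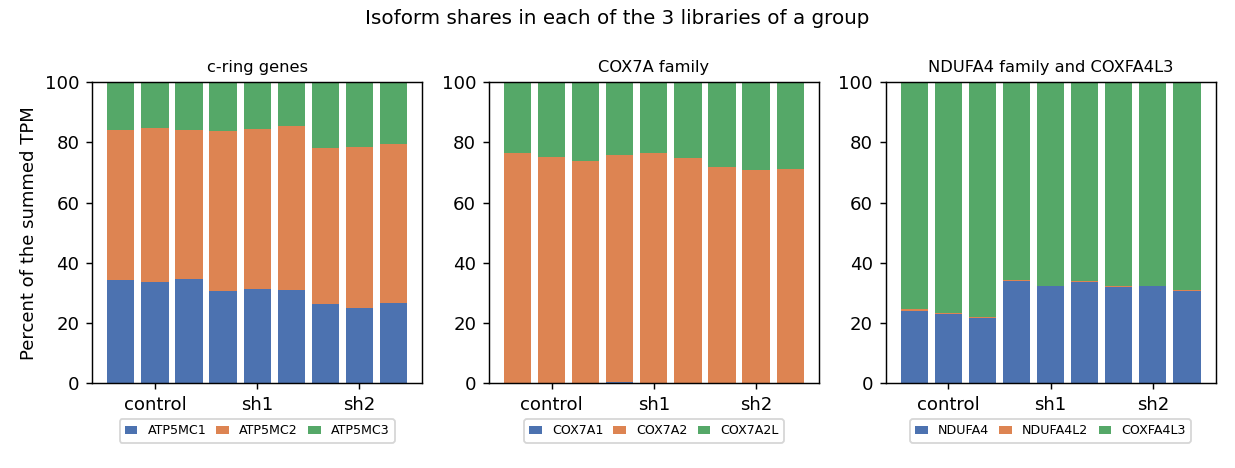
Percent of the summed TPM (vertical axis) held by each gene of 3 isoform families in the 3 libraries of control, sh1 and sh2, as stacked bars. ATP5MC1 goes from 34.2% in control to 25.9% with sh2, and NDUFA4 from 22.9% in control to 33.3% with sh1.

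The hairpins differed from each other about as often as genes at large did. Of the 82 tested members, 29 were called higher and 26 lower with sh1 than with sh2 (34.2% and 35.6% of all genes), with a median of 0.01, and 28 and 29 did not overlap in either direction (35.4% and 36.6% of all genes). Complex IV had 5 called higher and 1 lower with sh1 than with sh2 among 14, and the other complexes were nearly even. The listed 21 core subunits had 10 (47.6%) called higher and 5 (23.8%) lower with sh1 (median 0.06), beside 34.7% and 34.6% of all genes. With sh2, 15 (71.4%) were higher and 1 (4.76%) lower (median 0.21), beside 34.2% and 34.3% of all genes. In sh1 against sh2, 4 (19.0%) were higher and 9 (42.9%) lower. The 61 other tested members had 43 (70.5%) higher and 6 (9.84%) lower with sh1 than in control (median 0.26). With sh2, 39 (63.9%) were higher and 9 (14.8%) lower than in control (median 0.19).

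Assembly factors, which build the complexes, were called in both directions, as genes at large were. Of 53 assembly factors, 15 (28.3%) were called higher and 19 (35.8%) lower with sh1 (median -0.02). With sh2, 14 (26.4%) were higher and 17 (32.1%) lower (median 0.01). Over all genes, the shares were 34.7% higher and 34.6% lower with sh1, and 34.2% and 34.3% with sh2. The same shares of all genes apply to the lists below. COX11, which delivers copper to the oxidase, was at 40 CPM in control, 38.0 CPM with sh1 and 14.2 CPM with sh2, a log2 fold change of -1.49 ± 0.069 with sh2 and -0.07 ± 0.058 with sh1. The complex I factor NDUFAF3 fell by 0.80 ± 0.049 with sh1 and by 0.11 ± 0.044 with sh2. ATPAF1, a chaperone of the F1 head, rose by 0.53 ± 0.053 and 0.59 ± 0.052.

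Among 14 genes of cytochrome c and coenzyme Q synthesis, 3 (21.4%) were called higher and 4 (28.6%) lower with sh1. With sh2, 6 (42.9%) were higher and 1 (7.14%) lower. The 4 that fell with sh1 were CYCS, the cytochrome c gene (-0.34 ± 0.034), COQ5, a methyltransferase (-1.75 ± 0.081), COQ9 (-0.44 ± 0.049) and COQ10B (-1.44 ± 0.062). With sh2 their values were 0.04 ± 0.033, 0.10 ± 0.061, 0.13 ± 0.045 and 0.23 ± 0.049.

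Of 19 biogenesis factors and genes of mitochondrial DNA expression, 18 were tested. With sh1, 3 (16.7%) were called higher and 6 (33.3%) lower (median -0.05). With sh2, 5 (27.8%) were higher and 11 (61.1%) lower (median -0.18). TFAM, which packages and transcribes mitochondrial DNA, was at 71.5 CPM in control, 22.2 CPM with sh1 and 79.8 CPM with sh2. Its log2 fold change was -1.68 ± 0.050 with sh1 and 0.16 ± 0.039 with sh2. The orphan receptor ESRRA fell by 0.88 ± 0.045 and 0.25 ± 0.041. NRF1, whose motif was searched above, stood at -0.14 ± 0.076 with sh1 (edgeR adjusted p = 0.0969) and -0.37 ± 0.077 with sh2 (edgeR adjusted p = 8.32e-05). The GABP subunits went apart: GABPA rose by 0.21 ± 0.051 and 0.37 ± 0.049, and GABPB1 fell by 0.46 ± 0.060 and 0.64 ± 0.061 with sh1 and sh2.

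Members with an NRF1 motif in a window (16 tested) had a median log2 fold change of 0.22 with sh1 and 0.18 with sh2, and the 52 without had 0.19 and 0.19. Members with an ETS motif (21 tested) had medians of 0.24 and 0.17, and the 47 without had 0.19 and 0.21. Over all tested genes with a window, those with an NRF1 motif had medians of 0.03 and 0.04, and those without 0.01 and 0.01. With an ETS motif the medians were 0.01 and 0.05, and without 0.02 and -0.0. Of 2366 genes with an ETS motif, 844 were called higher and 815 lower with sh1, and 983 and 710 with sh2. Of 8695 without, 3033 and 2992 were called with sh1, and 2878 and 3053 with sh2. The part of the motifs in these changes was not tested.

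Of 17 genes of the citric acid cycle and pyruvate dehydrogenase, 8 (47.1%) were called higher and 4 (23.5%) lower with sh1. With sh2, 5 (29.4%) were higher and 5 (29.4%) lower. IDH3A, a subunit of mitochondrial isocitrate dehydrogenase, fell by 0.43 ± 0.040 on the log2 scale with sh1 and by 0.40 ± 0.039 with sh2. Of 77 mitochondrial ribosomal proteins, 28 (36.4%) were called higher and 26 (33.8%) lower with sh1 (median 0.03). With sh2, 53 (68.8%) were higher and 10 (13.0%) lower (median 0.25). In sh1 against sh2, 12 (15.6%) were higher and 52 (67.5%) lower, beside 34.2% and 35.6% of all genes. MRPS35 fell by 1.87 ± 0.045 with sh1 and stood at 0.15 ± 0.034 with sh2.

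In the list of the ATP synthase inhibitor, ADP/ATP and phosphate carriers and outer-membrane channels, 3 of 8 were called higher and 3 lower with sh1, and 4 higher and 2 lower with sh2. VDAC1, the main channel of the outer membrane, was at 323 CPM in control, 114 CPM with sh1 and 190 CPM with sh2, and fell by 1.5 ± 0.032 and 0.76 ± 0.030. ATP5IF1, the inhibitor of ATP synthase, fell by 0.23 ± 0.043 and 0.25 ± 0.043. SLC25A3, the phosphate carrier, rose by 0.19 ± 0.030 and 0.19 ± 0.030.

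**Figure D5:**
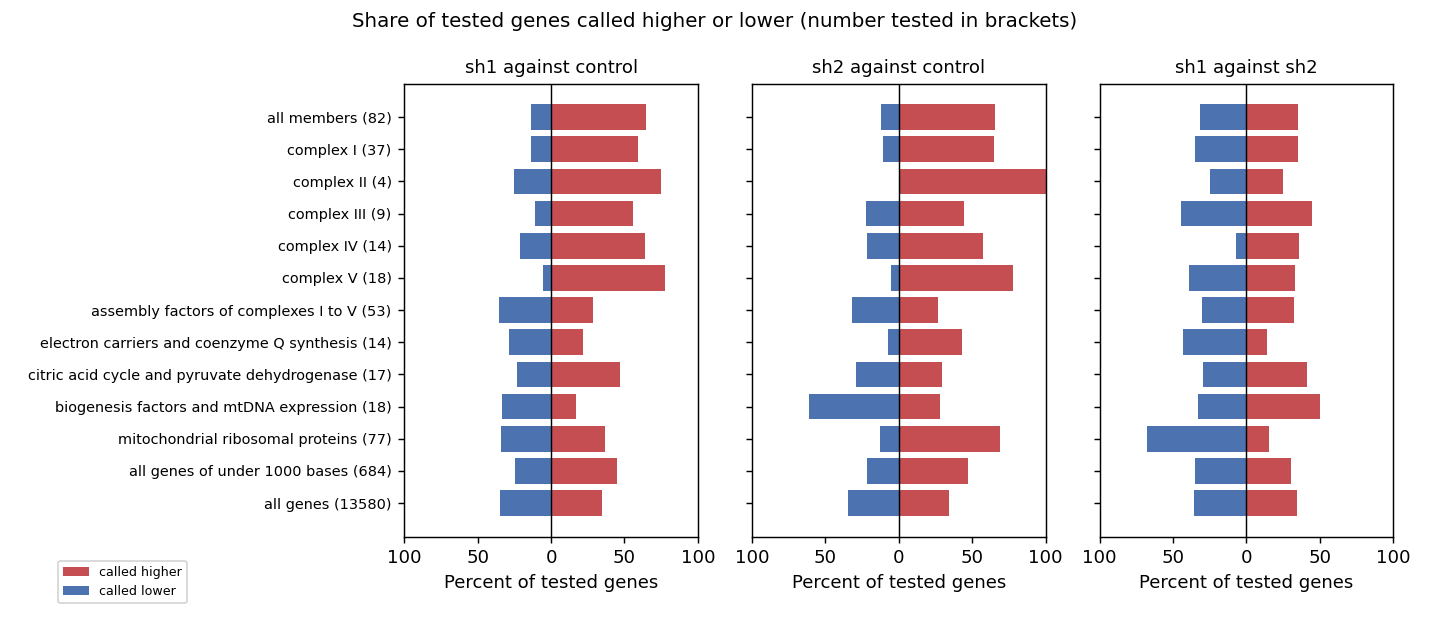
Percent of tested genes (horizontal axes) called higher, to the right, or lower, to the left, for the subunits (all members), each complex, the other lists, all genes of under 1000 bases and all genes, in the 3 comparisons. The subunits reach 64.6% higher with sh1 and 65.9% with sh2, against 34.7% and 34.2% of all genes and 45.0% and 47.5% of short genes.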

How the data were processed

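Total RNA of 3 KYSE510 samples, extracted with Trizol, was sequenced on BGISEQ-500, per the labels' protocols. Tools listed in the submitters' processing notes, with no roles, are RSEM 1.2.12, Bowtie2 2.2.5, DESeq2 1.4.5 and HISAT2 2.0.4, with the build hg19. Per the file headers, the 9 deposited tables list TPM, FPKM and expected counts per Entrez gene. The strandedness of the counting is not given in the sources used, so overlapping, antisense and near-identical genes are uncertain. Symbols came from RefSeq (GRCh38.p14), and the COXFA4 renaming was undone with GENCODE symbols. The members and lists were chosen with earlier results of these data known.

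Expected counts deposited by the authors were rounded and fitted in edgeR 4.0.16 (R 4.3.3): filterByExpr, TMM, 1 quasi-likelihood fit of all 9 libraries with group as the only term, Benjamini-Hochberg adjustment over 13580 genes. The SE is the absolute log2 fold change over the square root of F, so it can lie below counting error for genes with few counts. Levels are CPM or deposited TPM, as mean ± SD. The fit was also run on simulated counts with the spread found between tables, which cannot show how often calls fail between samples. Named members were the core subunits, the isoform families, the 2 largest called changes per complex and contrast and the most abundant gene per complex. Some values are not reported here. Others, and all genes of the lists, were chosen after values were seen. Alternatives were DESeq2 1.42.0, RLE and upper-quartile factors, library size, no filter, unrounded counts, each table left out, a replicate block, summed tables, and limma 3.58.1 on log2(FPKM + 1) or log2(FPKM + 0.1) of the FPKM values deposited by the authors. A floor of 3 counts covers counting error only. Tables of a sample differed by more than sampling noise (mean chi-square per gene and degree of freedom 1.49 to 2.03, where noise alone gives about 1).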

Additional observations from a re-analysis of the deposited data

Results flagged for a closer look

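In 5 of the 82 tested subunits the hairpins moved in opposite directions against control. Both changes were called, and the difference between the hairpins as well. Over all genes, 34.7% were called higher and 34.6% lower with sh1, and 34.2% and 34.3% with sh2. How many of all genes meet the same rule is not given here, so the 5 cannot be called many or few. Sh1 minus sh2 on the log2 scale was 0.98 ± 0.077 for NDUFB2 (edgeR adjusted p = 1.81e-12), -0.57 ± 0.054 for NDUFB3 (edgeR adjusted p = 1.2e-10), -0.32 ± 0.038 for SDHB (edgeR adjusted p = 9.72e-09), 0.44 ± 0.057 for UQCR11 (edgeR adjusted p = 5.64e-08) and -0.30 ± 0.036 for ATP5F1C (edgeR adjusted p = 1.4e-08). NDUFB2 and UQCR11 were higher with sh1 in 3 of 3 libraries, and NDUFB3, SDHB and ATP5F1C were lower in 3 of 3. For SDHB the fall with sh1 depends on the choice of libraries and of method, as given above. The cause of these differences was not tested.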

How the results depend on the processing

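Every alternative listed under the processing was run. The members called higher against control numbered 50 to 55 with sh1 and 48 to 56 with sh2 when 1 table was left out, and 49 to 60 and 50 to 55 under the other settings. Those called lower numbered 10 to 11 and 8 to 11 without 1 table, and 9 to 11 and 7 to 10 otherwise. With upper-quartile factors the median with sh1 was 0.26, where the median of all genes was 0.06 and 38.7% of them were called higher. Summed over the members, FPKM was 1.18 and 1.15 times control with sh1 and sh2, beside 1.14 and 1.1 times for TPM. The summed TPM with sh1 was 1.15 times control without control library 1 and 1.12 times without control library 3. Same-numbered tables did not deviate together (correlations of -0.11 to 0.12). With the table number as a replicate block, 53 members were called higher and 11 lower with sh1, 53 and 10 with sh2, and 30 and 26 in sh1 against sh2. Of 2874 values of named subunits under an alternative, 2796 stayed on their side of the threshold, 61 lost a call and 17 gained one. None (0) of the called values changed sign, and 32 values of 11 subunits that had not been called did, all at log2 fold changes of at most 0.11 in size. ATP5MK in sh1 against sh2 went from -0.22 to -0.12 on the FPKM scale (limma adjusted p = 0.0686). NDUFA4L2 stood at -0.42 with sh1 and -0.4 with sh2 on log2(FPKM + 1) with no filter, a scale that understates low genes. COX8A with sh1 lost its call with upper-quartile factors (-0.08, edgeR adjusted p = 0.0911). The depth limits low genes such as NDUFA4L2, COX6B2 and ATP5MGL, where SEs were 0.21 to 0.468. With 1 sample per group, no call was tested between samples.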

Other observations

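The readthrough unit ATP5MF-PTCD1 varied widely between tables of the same sample, with 3.84, 6.25 and 13.3 CPM for control, 16.8, 9.35 and 9.98 CPM for sh1 and 3.82, 16.3 and 10.9 CPM for sh2. Added to ATP5MF, it made 90.5 ± 2.62 CPM for control, 129 ± 5.37 for sh1 and 114 ± 9.02 for sh2, log2 ratios of 0.51 and 0.33. NDUFC2-KCTD14 had 0.681 ± 0.381 CPM for control, 1.15 ± 0.424 for sh1 and 0.252 ± 0.00357 for sh2, and its sum with NDUFC2 gave log2 ratios of 0.72 and 0.54. How reads were divided between a readthrough unit and its gene was not tested.

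ATP5MGL, a near copy of ATP5MG, stood at 1.59 TPM in control beside 100 TPM for ATP5MG, and its log2 fold change of 0.82 ± 0.386 with sh1 did not pass the test. The sum of both genes gave log2 ratios of 0.30 with sh1 and 0.29 with sh2.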
